A study of Homo sapiens with 9 samples.

Results

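The subject is a set of 10 enzymes that build purine and pyrimidine nucleotides from small precursors, measured as messenger RNA in MOLT4 cells. The members were chosen by gene symbol, with earlier results of these data known. They are PPAT, GART, PFAS, PAICS, ADSL, ATIC, IMPDH2 and GMPS of the purine route, and CAD and UMPS of the pyrimidine route. All 10 had a row among the 23621 gene rows of the deposited table. MOLT4 is an established human cell line from a T-cell leukemia. Cells received MI-389, sunitinib or vehicle for 6 h, with 3 libraries per group, and RNA was sequenced. MI-389 is a heterobifunctional phthalimide conjugate, as the labels describe it, and sunitinib is a kinase inhibitor. The vehicle was 0.1% DMSO.

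Groups are given here as the sample titles name them. For all 6 treated libraries another label field gives the other compound: it lists sunitinib at 1 µM for the libraries titled MI-389, and MI-389 at 0.1 µM for those titled sunitinib. If that field holds, every value given below for one compound belongs to the other. Doses stand only in that field and were unequal, so the treated groups differ in compound and dose together. All libraries come from a single cell line, and no label says whether replicates were separate cultures, so p-values measure the spread between these libraries, which may be technical.

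Rapidly dividing cells such as leukemic T cells make much of their nucleotide supply anew. In the purine route PPAT commits phosphoribosyl pyrophosphate to the pathway, GART, PFAS, PAICS, ADSL and ATIC build the ring up to inosine monophosphate (IMP), and IMPDH2 and GMPS turn IMP into guanosine monophosphate. ADSL acts a further time on the branch to adenosine monophosphate. In the pyrimidine route the trifunctional protein CAD carries out the opening steps and UMPS the closing steps to uridine monophosphate, with the mitochondrial enzyme DHODH between them. Several of these genes are known targets of the transcription factor MYC, and folate carriers and glutamine feed the purine ring.

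PPAT and PAICS are neighbours read in opposite directions, and the interval between their starts is shown because results below separate these genes. In the RefSeq promoter table (GRCh38.p14), the start of PPAT on the minus strand and a start of PAICS on the plus strand bound 136 bases at chr4:56435616-56435751. The interval is printed on the plus strand, from the PPAT start on its left to the PAICS start on its right. Capitals mark the motif GGGCGG, which occurs there 3 times and at least once on either strand in 35.6% of 35116 windows of the same length placed just before starts. The interval has a GC content of 75.0%, while the median over whole windows of 300 bases is 58.7%.
PPAT-PAICS interval: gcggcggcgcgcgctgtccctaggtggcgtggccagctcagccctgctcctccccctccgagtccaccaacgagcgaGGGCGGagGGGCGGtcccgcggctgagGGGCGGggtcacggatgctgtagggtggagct

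The E-box CACGTG, the motif of MYC and its partner MAX, was searched in windows of 300 bases (250 before to 50 after each start) and is its own reverse complement. It was present in windows of 3 of the 8 members that the table holds, PPAT, PAICS and ATIC, and in windows of 8.78% of 27305 genes. PPAT and PAICS share a single site at chr4:56435792-56435797, position -182 from the PPAT start and 41 from the PAICS start. ATIC, on the plus strand of chromosome 2, has sites at positions -46 and 30, at chr2:215312013-215312018 and chr2:215312088-215312093. The motif TATAAA was found on either strand in windows of GART alone among these members, against windows of 13.99% of genes. The 3 E-box sites are printed in 30 bases each on the strand of the named gene, with the motif in capitals, and a match describes letters and not binding.
PPAT site, minus strand: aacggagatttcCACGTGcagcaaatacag
ATIC site before the start: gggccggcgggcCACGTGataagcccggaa
ATIC site after the start: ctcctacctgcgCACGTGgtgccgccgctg

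The table gives FPKM, a measure per length of transcript, so levels can be set against each other between genes. The authors normalized the values between libraries in a way not stated, so the scale need not be plain library size. Depth per library is unknown here. Of 23621 genes, the 12301 that averaged 1 FPKM or more were tested with limma on log2(FPKM + 1), and a call means an adjusted p under 0.05. All 10 members passed this filter in every group. RefSeq names 7 pseudogenes of PAICS, 2 of PPAT and 1 of GMPS, none with a row in the table, and reads shared with them could be counted for either copy. The highest group mean of any member, 584 FPKM for PAICS in DMSO, lay below the most abundant spike-in RNA at 1523 FPKM. All 13 T-lineage markers were above 1 FPKM, with sums of 4627 to 4905 in MI-389, 5248 to 5521 in sunitinib and 4878 to 6040 FPKM in DMSO libraries. The 5 B cell markers summed to 8.97 to 12.8 FPKM in all libraries. The 7 epithelial and fibroblast markers summed to 2.20 to 3.49 FPKM and the 6 myeloid markers to 0.990 to 1.28 FPKM. CD33, MS4A1, PAX5 and EPCAM were at the table's floor near 0.1 FPKM. Of these 3 lists, CD79A (8.07 FPKM), CD79B (2.20 FPKM) and KRT8 (1.65 FPKM) averaged above 1 FPKM over all libraries.

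In DMSO the members spanned from the middle to the top of the transcriptome. PAICS at 584 ± 58.7 FPKM and IMPDH2 at 556 ± 55.8 FPKM (SD, n = 3) led, above 97.3% and 97.1% of tested genes. Their means lay within the spread between libraries, though PAICS was the higher in each DMSO library. ATIC at 270.1 ± 28.6, ADSL at 248 ± 23.8 and GART at 242 ± 18.8 FPKM formed a middle tier within their spread of each other. Within each DMSO library ATIC was the highest of these. GMPS stood at 122 ± 10.5, PPAT at 92.0 ± 4.23, CAD at 58.8 ± 6.15, PFAS at 44.2 ± 5.58 and UMPS at 25.9 ± 1.21 FPKM, the last above 51.5% of tested genes. In both treated groups IMPDH2 took the top place, since PAICS stood at 345 ± 8.01 FPKM in MI-389 and 438 ± 7.35 FPKM in sunitinib libraries. For all 10 members the SD was smaller in each treated group than in DMSO. DMSO replicate 1 was lowest of its group for 9 of 10 members and DMSO replicate 3 highest for 9 of 10. The median over all tested genes was also lowest in DMSO replicate 1 (4.59 on the log2 scale) and highest in DMSO replicate 3 (4.76). Rows named MIR1244 held 59.7%, 57.9% and 54.6% of the summed FPKM of all rows in DMSO replicates 1, 2 and 3. Their share was 50.5% to 53.8% in MI-389 and 61.8% to 63.6% in sunitinib libraries. What part the medians or this share had in the results was not tested.

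**Figure D1:**
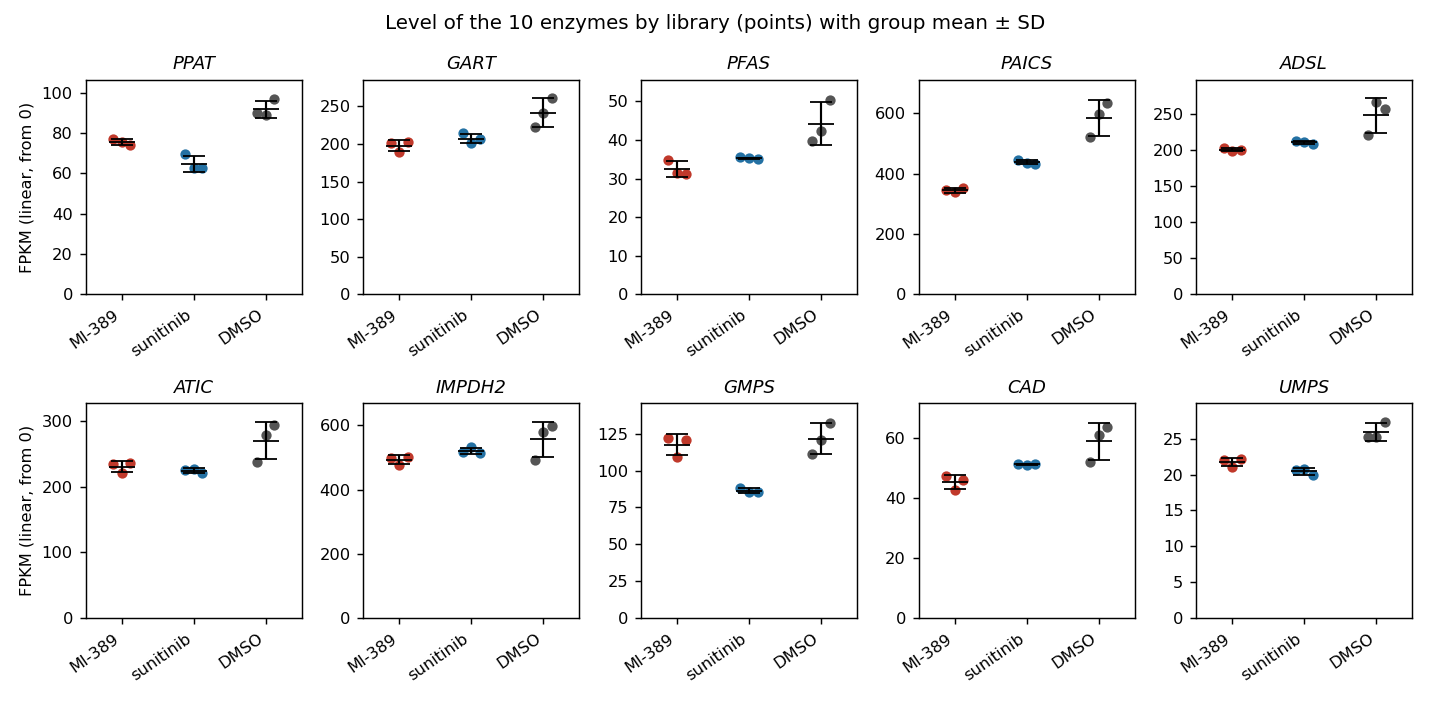
FPKM of each enzyme (vertical axis, linear from 0) in the 3 libraries of MI-389, sunitinib and DMSO; points are libraries and black bars the group mean ± SD. PPAT, PFAS, PAICS, ADSL, CAD and UMPS separate all 3 groups. GMPS is low only in sunitinib libraries, and IMPDH2 overlaps between each treated group and DMSO. Over all genes tested, libraries did not overlap for 60.2% in MI-389 versus DMSO, 35.2% in sunitinib versus DMSO and 69.4% in MI-389 versus sunitinib.

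The comparison of MI-389 with DMSO asks how the conjugate changed the transcriptome of these cells within 6 h. Of the 10 enzymes, 8 fell and none rose, where 56.7% of all genes were called. PAICS showed the largest drop, 40.9%, and the other 7 fell by 14.7% to 26.4%. GMPS and IMPDH2, the guanylate branch, did not pass the test. By direction 28.3% of all genes were called lower and 28.5% higher, and the median log2 difference was -0.28 over the members and -0.0021 over all genes. In these bulk libraries, less RNA per cell and fewer cells carrying the transcript cannot be told apart.

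PPAT, which sets the pace of the purine route, had 76.9, 75.8 and 74.2 FPKM in MI-389 libraries, against 89.9, 89.1 and 96.8 FPKM in DMSO. Its groups did not overlap, as was the case for 60.2% of genes (29.7% with MI-389 lower), and its log2 difference was -0.28 (95% interval -0.41 to -0.15, adjusted p = 0.00237). GART, which carries 3 activities of ring synthesis in a single protein, had 201, 189 and 202 FPKM, against 223, 241 and 261 FPKM in DMSO. GART fell by 0.29 on the log2 scale (adjusted p = 0.00365), but by 0.06 after cyclic loess between libraries, where the call was lost (adjusted p = 0.14). GART also shares 275 of its 7751 annotated exon bases with SON on the other strand, and the library kit does not mark strand.

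PFAS, the glutamine-using amidotransferase that follows, stood at 34.9, 31.4 and 31.3 FPKM, against 39.8, 42.3 and 50.5 FPKM in DMSO. All MI-389 libraries lay below all DMSO libraries, and the fall was -0.43 on the log2 scale (interval -0.61 to -0.24, adjusted p = 0.00178). PAICS, a bifunctional carboxylase and synthetase, had 345, 338 and 354 FPKM, against 519.8, 597 and 635 FPKM in DMSO. The gap between the groups was wider than the spread within either, at -0.75 (interval -0.91 to -0.59, adjusted p = 2.15e-05), and only 3.54% of tested genes had a lower log2 difference.

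ADSL, a lyase that acts in both the trunk and the adenylate branch, had 204, 199 and 201 FPKM in MI-389 libraries, against 221, 266 and 257 FPKM in DMSO. It fell by 0.30 (interval -0.45 to -0.15, adjusted p = 0.00384). A same-strand annotated gene overlaps 18.9% of its exon bases. ATIC, which closes the purine ring, had 234, 221 and 236 FPKM, against 238, 279 and 293 FPKM in DMSO. Its highest MI-389 library lay just under DMSO replicate 1. Its difference of -0.22 (adjusted p = 0.0269) was called in 11 of 20 alternative settings and stood at 0.00011 after quantile normalization and 0.02 after cyclic loess. The call was also lost without any single MI-389 replicate (adjusted p = 0.0531, 0.0919 and 0.0510 without replicates 1, 2 and 3), without DMSO replicate 2 (0.0889) and without DMSO replicate 3 (0.0788).

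IMPDH2, the rate-limiting dehydrogenase of guanylate synthesis in dividing lymphocytes, had 499.8, 477 and 502 FPKM in MI-389 libraries, against 493, 579 and 597 FPKM in DMSO. The groups overlapped through DMSO replicate 1, and the difference of -0.17 (interval -0.33 to -0.0069, adjusted p = 0.0711) was not called. Without DMSO replicate 1 it was -0.25 and passed (adjusted p = 0.000214), with median centring it passed at -0.25, and after quantile normalization and cyclic loess it passed in the other direction, at 0.06 and 0.14. GMPS, the guanylate synthetase, had 122, 109 and 121 FPKM, against 111, 121 and 132 FPKM in DMSO. These ranges lay on top of each other, with a difference of -0.05 (interval -0.20 to 0.11, adjusted p = 0.59). It was called lower with median centring (-0.12, adjusted p = 0.00672) and higher after cyclic loess (0.077, adjusted p = 0.0392).

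Both pyrimidine enzymes fell. CAD had 47.2, 42.7 and 45.9 FPKM in MI-389 libraries, against 51.9, 60.9 and 63.7 FPKM in DMSO, or -0.37 on the log2 scale (interval -0.53 to -0.20, adjusted p = 0.00227). UMPS had 22.04, 21.1 and 22.1 FPKM, against 25.2, 25.3 and 27.3 FPKM in DMSO, at -0.24 (interval -0.36 to -0.13, adjusted p = 0.00304). Neither overlapped between the groups. PPAT, PFAS, PAICS, ADSL, CAD and UMPS were each called lower in all 20 alternative settings. Cyclic loess shrank some of these falls, to -0.45 for PAICS and -0.066 for ADSL.

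**Figure D2:**
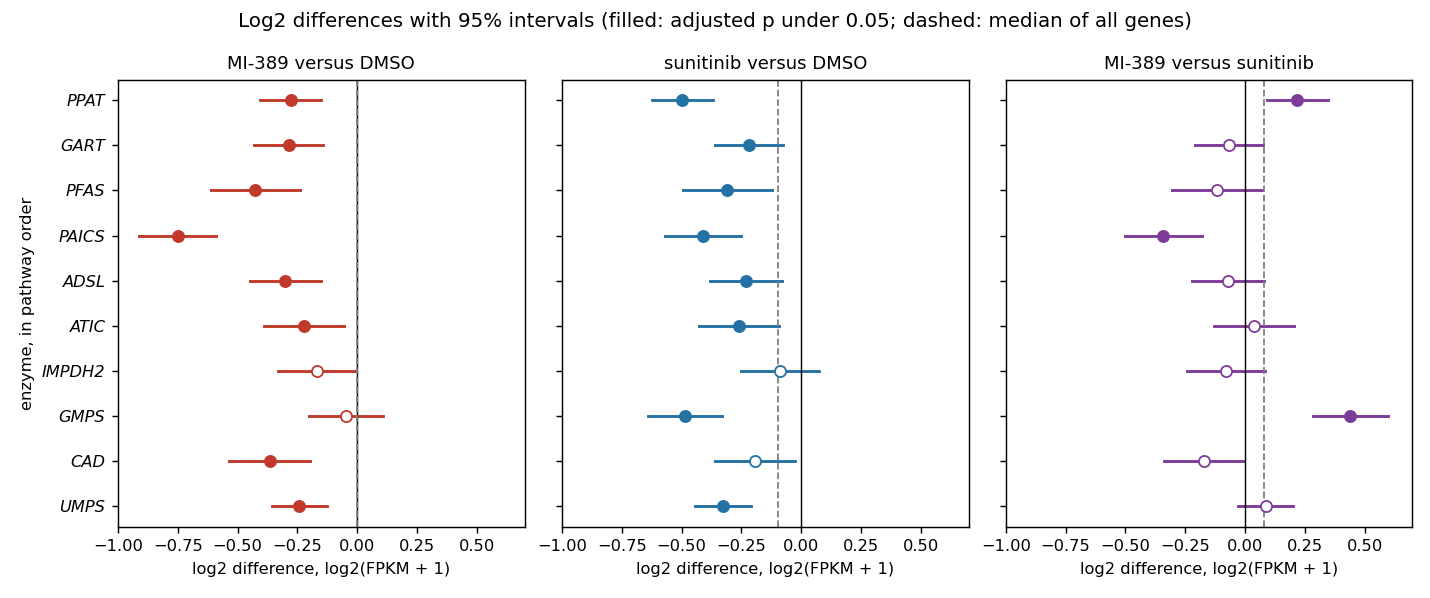
Log2 differences on the log2(FPKM + 1) scale (horizontal axis) with 95% intervals for MI-389 versus DMSO, sunitinib versus DMSO and MI-389 versus sunitinib; filled circles passed an adjusted p of 0.05, open circles did not, and the dashed line is the median of all genes tested. PAICS is farthest from 0 in MI-389 versus DMSO, PPAT and GMPS in sunitinib versus DMSO.

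In sunitinib libraries 8 of the 10 enzymes were lower than in DMSO and none higher, while 19.3% of all genes were called, 16.9% lower and 2.37% higher. The members that fell did so by 14.3% to 29.4%, with PPAT and GMPS lowest relative to DMSO. IMPDH2 and CAD were not called. The median log2 difference was -0.28 over the members and -0.10 over all genes. These DMSO libraries are the same as in the MI-389 comparison. The fit also pools the spread of the MI-389 libraries, and with the 6 compared libraries alone 4 members were called lower.

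PPAT had 69.4, 62.5 and 62.8 FPKM in sunitinib libraries, against the 89.9, 89.1 and 96.8 FPKM in DMSO. Its difference was -0.50 (interval -0.63 to -0.37, adjusted p = 0.00146), and 2.36% of genes had a lower one. GMPS had 88.1, 85.2 and 85.6 FPKM, all under the lowest DMSO library at 111 FPKM, with a difference of -0.49 (interval -0.64 to -0.33, adjusted p = 0.00314). PAICS had 446, 436 and 432 FPKM, likewise below every DMSO library, at -0.41 (interval -0.57 to -0.25, adjusted p = 0.00632). UMPS had 20.6, 20.8 and 19.9 FPKM and a difference of -0.33 (interval -0.44 to -0.21, adjusted p = 0.00464). These 4 enzymes were called lower in all 20 alternative settings.

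The other 4 calls were close to the threshold. PFAS had 35.5, 35.2 and 35.2 FPKM, GART 214, 201 and 206 FPKM, ADSL 213, 211 and 209 FPKM and ATIC 225, 228 and 220.5 FPKM in sunitinib libraries. Their differences were -0.31 for PFAS, -0.22 for GART, -0.23 for ADSL and -0.26 for ATIC, with adjusted p = 0.0312, 0.0401, 0.0408 and 0.0374 in that order. Each lay below all DMSO libraries, as did 9 of the 10 members, where 35.2% of genes showed no overlap (29.3% with sunitinib lower). PFAS was called in 11 of 20 alternative settings, ATIC in 7, ADSL in 6 and GART in 5. After cyclic loess PFAS stood at -0.21, ATIC at -0.12, ADSL at -0.090 and GART at -0.079. The number of members called fell to 4 without any single sunitinib replicate, without DMSO replicate 2 or without DMSO replicate 3. It was 5 without any single MI-389 replicate and 10 without DMSO replicate 1.

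CAD had 51.1, 50.8 and 51.4 FPKM in sunitinib libraries, against 51.9, 60.9 and 63.7 FPKM in DMSO. These did not overlap, yet the difference of -0.19 was not called (adjusted p = 0.098); without DMSO replicate 1 it was -0.28 and passed (0.00379). IMPDH2 had 518, 532 and 514 FPKM, within the range of the DMSO libraries, with a difference of -0.09 (interval -0.25 to 0.07, adjusted p = 0.42). Without DMSO replicate 1 it was -0.17 and passed (0.00467), while it turned to 0.05 after quantile normalization and 0.04 after cyclic loess.

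**Figure D3:**
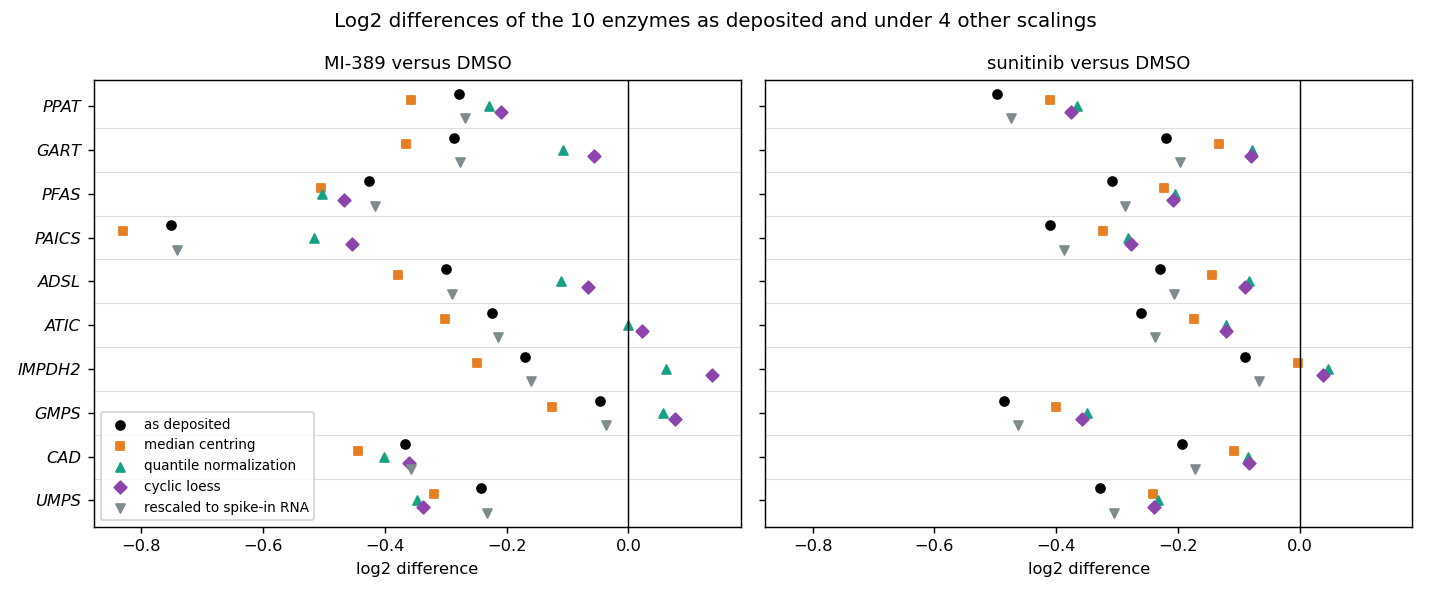
Log2 differences (horizontal axis) of each enzyme for MI-389 versus DMSO and sunitinib versus DMSO, with values as deposited and after median centring, quantile normalization, cyclic loess and rescaling to spike-in RNA. PPAT, GART, PFAS, PAICS, ADSL, CAD and UMPS stay below 0 under all of these in both comparisons. ATIC, IMPDH2 and GMPS reach or cross 0 in the MI-389 panel, and IMPDH2 also in the sunitinib panel.

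MI-389 and sunitinib libraries were compared directly to test where the treated groups differed. Of the 10 enzymes 2 were higher with MI-389, GMPS and PPAT, and 1 was lower, PAICS; among all genes 56.3% were called, 36% higher and 20.3% lower. These counts turned with the scaling, to 1 higher and 7 lower members with median centring, 3 higher and 4 lower after quantile normalization, and 4 of each after cyclic loess. GMPS stood at 117 ± 6.97 FPKM in MI-389 and 86.3 ± 1.58 FPKM in sunitinib libraries (SD, n = 3), a difference of 0.44 (interval 0.28 to 0.60, adjusted p = 0.000511). PPAT stood at 75.6 ± 1.39 FPKM in MI-389 and 64.9 ± 3.93 FPKM in sunitinib libraries, at 0.22 (interval 0.09 to 0.35, adjusted p = 0.00864). PAICS stood at 345 ± 8.01 FPKM in MI-389 and 438 ± 7.35 FPKM in sunitinib libraries, at -0.34 (interval -0.50 to -0.18, adjusted p = 0.00261).

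Libraries did not overlap for 3 members with MI-389 higher and 5 with MI-389 lower, where 69.4% of genes showed no overlap (27% with MI-389 lower). The 7 members other than GMPS, PPAT and PAICS were not called, though libraries of PFAS, ADSL, IMPDH2, CAD and UMPS did not overlap. In a fit of the 6 compared libraries alone CAD, ADSL and IMPDH2 were called lower (adjusted p = 0.0109, 0.0397 and 0.0466). Intervals of the main fit use a spread pooled over the 3 groups, and every member had its largest SD in FPKM in DMSO. As a share of the mean, the SD of PPAT was largest in sunitinib libraries (6.05%, against 4.59% in DMSO). For the other members this share was largest in DMSO. The interval of GART ran from -0.21 to 0.07, ADSL from -0.22 to 0.08 and ATIC from -0.13 to 0.20. That of UMPS ran from -0.03 to 0.20, PFAS from -0.30 to 0.07 and IMPDH2 from -0.24 to 0.08. CAD, at 45.3 ± 2.30 FPKM in MI-389 and 51.1 ± 0.274 FPKM in sunitinib libraries, had a difference of -0.17 (adjusted p = 0.0746), which passed without DMSO replicate 1 (0.00960) and without DMSO replicate 3 (0.0450). Without DMSO replicate 1, ADSL at -0.07 and IMPDH2 at -0.08 also passed (adjusted p = 0.0481 and 0.0415), so 6 members were called. Scaling mattered here. The median of all genes was 0.08 as deposited and -0.08 after median centring. With that centring the split of calls was 3279 higher and 4863 lower, against 4427 and 2500 as deposited, PAICS stood at -0.51 and GMPS at 0.27, and PPAT, at 0.05, was no longer called (adjusted p = 0.28).

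The ratio of PAICS to PPAT within a library is unaffected by a single scale factor per library. This ratio and that of GMPS to IMPDH2 were chosen after their values were seen. PAICS over PPAT was 4.48, 4.46 and 4.77 in MI-389 libraries, 6.42, 6.98 and 6.87 in sunitinib libraries and 5.78, 6.69 and 6.56 in DMSO libraries. MI-389 lay below both other groups without overlap, while sunitinib and DMSO overlapped. GMPS over IMPDH2 was 0.244, 0.230 and 0.241 in MI-389 libraries, 0.170, 0.160 and 0.167 in sunitinib libraries and 0.226, 0.209 and 0.222 in DMSO libraries. An exact two-sided permutation test of log2 ratios gave p = 0.1, the smallest it allows with 3 against 3, for every comparison of both ratios except PAICS over PPAT in sunitinib versus DMSO (p = 0.3). Adjusted over the 6 tests these were 0.12 and 0.3.

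**Figure D4:**
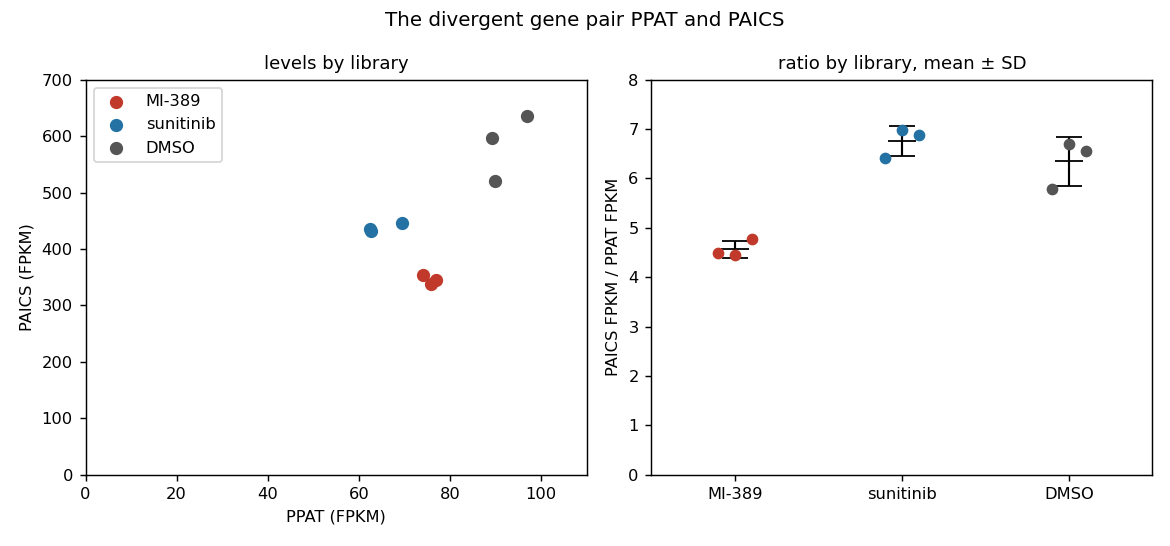
Left, PAICS against PPAT (both FPKM, linear from 0) in each library; right, their ratio by group with mean ± SD. MI-389 libraries have the lowest PAICS at an intermediate PPAT, and ratios of 4.46 to 4.77 lie under all others.

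Outside the 10 enzymes, 14 genes for other steps of the same routes were tested. In MI-389 versus DMSO 10 fell and 1 rose, and in sunitinib versus DMSO 8 fell and none rose. Over all genes tested 28.3% were called lower and 28.5% higher with MI-389, and 16.9% lower and 2.37% higher with sunitinib, and the lists below stand beside the same shares. The sunitinib count was 12 without DMSO replicate 1 and 5 without sunitinib replicate 2 or 3. IMPDH1, the second IMP dehydrogenase, stood at 41.5 ± 0.918 FPKM in MI-389, 58.1 ± 1.40 FPKM in sunitinib and 80.6 ± 9.42 FPKM in DMSO libraries (SD, n = 3). It fell by 0.94 with MI-389 (adjusted p = 9.99e-06) and by 0.46 with sunitinib (adjusted p = 0.0057), where its paralog IMPDH2 was called in neither comparison. PRPS2 and PRPS1, which make phosphoribosyl pyrophosphate, followed the same order. PRPS2 stood at 52.4 ± 3.52 FPKM in MI-389, 64.4 ± 1.24 FPKM in sunitinib and 87.6 ± 4.65 FPKM in DMSO libraries, and PRPS1 at 71.5 ± 2.02, 90.1 ± 0.209 and 111 ± 8.37 FPKM in the same groups. The calls of IMPDH1, PRPS1, PRPS2 and DHODH in both comparisons with DMSO held in all 20 alternative settings.

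On the pyrimidine side, DHODH fell by 0.61 with MI-389 (adjusted p = 0.000246) and by 0.46 with sunitinib (adjusted p = 0.00808), to 13.1 ± 1.30 and 14.6 ± 1.21 FPKM, against 20.5 ± 1.51 FPKM in DMSO. CTPS1, which makes cytidine triphosphate and is the form T cells rely on to proliferate, stood at 119.6 ± 5.88 FPKM in MI-389, 105 ± 2.09 FPKM in sunitinib and 137 ± 11.4 FPKM in DMSO libraries. It fell by 0.19 with MI-389 (adjusted p = 0.0333, called in 10 of 20 alternative settings) and by 0.38 with sunitinib (adjusted p = 0.00645). CTPS2, its paralog, was at the floor of the table and not tested.

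Of 10 tested genes of purine salvage and interconversion, 5 fell and 2 rose with MI-389 (28.3% and 28.5% of all genes) and 2 fell with sunitinib, a share near the 16.9% of all genes. The sunitinib count was 6 without DMSO replicate 1, and 1 without MI-389 replicate 3, any single sunitinib replicate, or DMSO replicate 2 or 3. The 2 that rose with MI-389 became 3 without DMSO replicate 3, and 1 without MI-389 replicate 1 or 3 or any single sunitinib replicate. PNP, which splits purine nucleosides and whose loss harms T cells, stood at 61.4 ± 4.25 FPKM in MI-389, 75.0 ± 0.752 FPKM in sunitinib and 106 ± 7.29 FPKM in DMSO libraries. HPRT1, the salvage enzyme of hypoxanthine and guanine, stood at 160.5 ± 1.61, 188 ± 4.54 and 225 ± 22.3 FPKM in the same groups; its fall with sunitinib (adjusted p = 0.0294) was called in 10 of 20 alternative settings. Of 9 genes of pyrimidine salvage, 3 fell with MI-389, near the 28.3% of all genes, and 4 fell with sunitinib, and none rose. The sunitinib count was 1 without sunitinib replicate 2, and 2 without sunitinib replicate 1 or 3 or DMSO replicate 2. With MI-389, 1 rose without MI-389 replicate 2 and 2 without DMSO replicate 3. Among those that fell were TK1, thymidine kinase, and SLC29A1, a nucleoside transporter, at 53.2 ± 1.86 and 119.6 ± 3.93 FPKM in MI-389 libraries, 57.2 ± 1.06 and 109.97 ± 1.74 FPKM in sunitinib libraries and 70.9 ± 6.01 and 154 ± 14.2 FPKM in DMSO libraries.

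Deoxynucleotide synthesis turns ribonucleotides into the building blocks of DNA. Of 7 genes tested, 6 fell and 1 rose with MI-389, and 5 fell with sunitinib, where 28.3% and 16.9% of all genes were called lower. The MI-389 counts were the same when any single library was left out, and the sunitinib count ran from 4 to 6, with 1 gene higher without DMSO replicate 3. RRM2, the regulated subunit of ribonucleotide reductase, stood at 193 ± 4.30 FPKM in MI-389, 145 ± 5.17 FPKM in sunitinib and 250.003 ± 14.8 FPKM in DMSO libraries. RRM2B, its p53-inducible counterpart, was the gene that rose with MI-389, to 18.4 ± 0.412 FPKM, against 10.7 ± 1.07 FPKM in DMSO (adjusted p = 2.83e-05). Of 8 tested genes of nucleotide breakdown, 2 rose and 2 fell with MI-389 and 1 fell with sunitinib, shares at or below those of all genes. The sunitinib count was 5 without DMSO replicate 1, and 0 without any single sunitinib replicate or DMSO replicate 3. The 2 that fell with MI-389 became 1 without MI-389 replicate 2 or 3 or DMSO replicate 3. NT5C2, a nucleotidase of IMP, rose 1.30-fold with MI-389 and NUDT1, which clears oxidized nucleotides, fell 1.39-fold.

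Of 11 tested genes that supply folate carriers and glutamine, 4 rose and 2 fell with MI-389, where 28.5% of all genes were called higher and 28.3% lower, and 1 rose and 4 fell with sunitinib, where 2.37% were called higher and 16.9% lower. The 4 that rose with MI-389 stayed at 4 when any single library was left out. The 2 that fell became 3 without DMSO replicate 1, 0 without MI-389 replicate 2, and 1 without MI-389 replicate 1, sunitinib replicate 1 or 2, or DMSO replicate 2 or 3. The 4 that fell with sunitinib became 7 without DMSO replicate 1, and 2 without any single sunitinib replicate or DMSO replicate 2 or 3. The 1 that rose became 0 without MI-389 replicate 1 or 3, any single sunitinib replicate, or DMSO replicate 1 or 2. MTHFD2, a mitochondrial folate enzyme, stood at 521 ± 13.1 FPKM in MI-389, 172 ± 2.97 FPKM in sunitinib and 166 ± 10.8 FPKM in DMSO libraries, a 3.14-fold rise with MI-389 (log2 difference 1.65, adjusted p = 5.06e-08). SLC1A5, a glutamine transporter, stood at 307 ± 11.6, 79.2 ± 2.72 and 99.1 ± 11.01 FPKM in the same groups, and MTHFD1L, a mitochondrial formate producer, at 108 ± 2.09, 55.1 ± 0.988 and 61.7 ± 4.57 FPKM. SLC1A5 differed between MI-389 and sunitinib libraries by 1.94 (adjusted p = 1.38e-07) and MTHFD1L by 0.96 (adjusted p = 1.62e-06). MTHFD1, the cytosolic enzyme that supplies formyl groups to GART and ATIC, stood at 148 ± 4.10 FPKM in MI-389, 130.02 ± 0.669 FPKM in sunitinib and 165 ± 14.1 FPKM in DMSO libraries. It fell with sunitinib (adjusted p = 0.00827) and was not called with MI-389 (adjusted p = 0.0666).

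**Figure D5:**
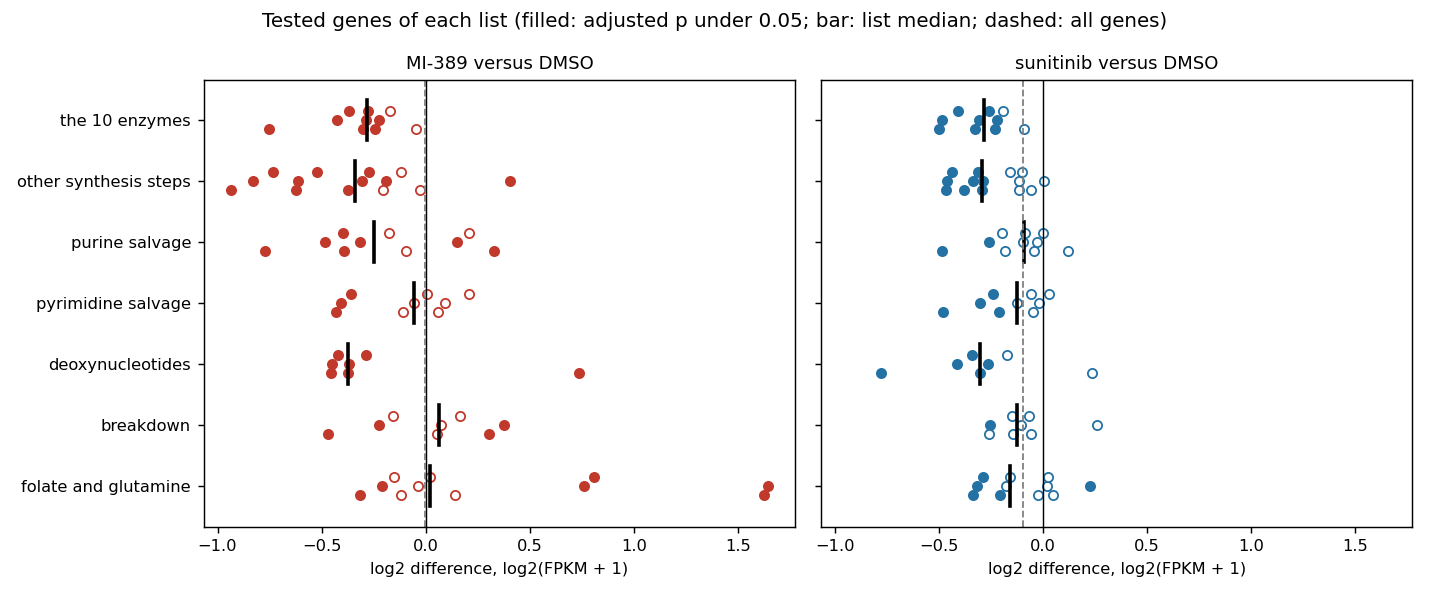
Log2 differences on the log2(FPKM + 1) scale (horizontal axis) of every tested gene in 7 gene lists for MI-389 versus DMSO and sunitinib versus DMSO; filled points passed an adjusted p of 0.05, the bar is the list median and the dashed line the median of all genes. Synthesis, deoxynucleotide and purine salvage genes lie mostly left of 0 in both panels. In the sunitinib panel most genes of every list do. Of all 12301 genes tested, 6193 lay below 0 in MI-389 versus DMSO and 8888 in sunitinib versus DMSO. Of the 4 folate and glutamine genes that rose with MI-389, MTHFD2 and SLC1A5 lie at the right edge of the MI-389 panel.

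Regulators named with this pathway differed between the groups. MYC stood at 431 ± 13.2 FPKM in MI-389, 236 ± 1.86 FPKM in sunitinib and 331 ± 27.4 FPKM in DMSO libraries (SD, n = 3). It rose with MI-389 (log2 difference 0.39, adjusted p = 0.000666) and fell with sunitinib (-0.48, adjusted p = 0.00274). ATF4, a stress-induced activator of amino acid and folate genes, stood at 1202 ± 22.3 FPKM in MI-389, 759 ± 17.3 FPKM in sunitinib and 671 ± 79.3 FPKM in DMSO libraries, and rose with MI-389 (0.85, adjusted p = 2.30e-05) but was not called with sunitinib (0.18, adjusted p = 0.14). Whether either bears on the enzymes was not tested.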

How the data were processed

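RNA of MOLT4 cells, with ERCC spike-in RNA added by cell number, went into SMARTer v4 libraries, per the labels' protocols. Per the submitters' processing notes, HISAT and Cufflinks 2.0.0 were used with hg19; annotation, settings and normalization between libraries are not given in those notes or the labels used here. The authors deposited FPKM values, 1 column per library, for 23713 rows, of which 92 are spike-ins. The lowest value is 0.0924 FPKM. No columns were left unmapped and no libraries were identical.

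Genes averaging 1 FPKM or more in the 9 libraries were fitted on log2(FPKM + 1), which understates changes of low genes, with limma 3.58.1 in R 4.3.3: 3 groups in a single model, variance trend, two-sided tests, Benjamini-Hochberg adjustment over 12301 genes. Percent changes and folds are ratios of mean FPKM. The fit was tested on simulated data that held no shift shared by a whole library, so that test does not cover such shifts.

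The members and gene lists were chosen with earlier results of these data known. Named genes were all members, a fixed set of pathway genes and regulators, and up to 3 called genes with the smallest adjusted p from each list; a selection is printed. Lists are described by counts. Replicate numbers did not pair libraries: correlations of same-numbered deviations ran from -0.04 to 0.11. Alternatives were 2 pseudocounts, 2 filters, 4 scalings, a replicate block, each library left out, a fit without variance trend and a fit of just the 6 libraries compared. The 16 spike-ins used for rescaling already averaged 6.15 to 6.19 on the log2 scale in every library. That rescaling could therefore move log2 differences only slightly. Median centring, quantile normalization and cyclic loess did not use the spike-ins. Sequences came from a RefSeq promoter table (GRCh38.p14), which held 8 of 10 members, and exon overlaps from GENCODE annotation of GRCh38. Promoters of ADSL and IMPDH2 were not used here. Figures were drawn with matplotlib 3.10.9.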

Additional observations from a re-analysis of the deposited data

How the results depend on the processing

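Depth is unknown for FPKM, and 3 libraries per group limit precision. In 20 alternative settings each, the count of genes called in MI-389 versus DMSO ranged from 6009 to 8178 and that of members from 7 to 10, and the genes called in MI-389 versus sunitinib from 5946 to 8217. The share of higher calls in MI-389 versus DMSO was 50.2% as deposited and 39.4% with median centring. In sunitinib versus DMSO it was 12.3% as deposited, 48.6% after cyclic loess, 46.1% after quantile normalization, 40.5% with median centring and 23.8% if DMSO replicate 3 was left out. In MI-389 versus sunitinib it was 63.9% as deposited, 50.2% after cyclic loess, 46.1% after quantile normalization and 40.3% with median centring. In sunitinib versus DMSO 2370 genes were called. The count was 1423 without a filter, 3677 after quantile normalization, 3814 after cyclic loess and 1225 with the 6 libraries alone, and 948 to 4250 when single libraries were left out. Members called there numbered 8, but 4 without a filter, after rescaling to spike-in RNA or with the 6 libraries alone, 5 without a variance trend, and 4 to 10 when single libraries were left out. With a replicate block, although the numbers did not pair the libraries, 4 members were called in sunitinib versus DMSO, 8 in MI-389 versus DMSO and 3 in MI-389 versus sunitinib. Members called in MI-389 versus sunitinib numbered 3, but 8 with median centring or cyclic loess, 7 after quantile normalization and 6 with the 6 libraries alone, and 3 to 6 when single libraries were left out. The cause of these moves was not tested.

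Directions turned for some genes. In MI-389 versus DMSO, quantile normalization gave ATIC 0.00011, IMPDH2 0.063 and GMPS 0.056, and cyclic loess gave ATIC 0.022, IMPDH2 0.14, GMPS 0.077 and MTHFD1 0.024. With single libraries left out GMPS ranged from -0.11 to 0.016, above 0 without MI-389 replicate 2 (0.0033) or DMSO replicate 3 (0.016). In sunitinib versus DMSO, IMPDH2 was 0.039 by cyclic loess and 0.046 by quantile normalization. NT5C2 was 0.019, 0.045 and 0.054 by median centring, quantile normalization and cyclic loess in that order. MTHFD2 ranged from -0.0054 (DMSO replicate 1 left out) to 0.080. In MI-389 versus sunitinib, median centring gave ATIC -0.13, UMPS -0.079 and SLC29A1 -0.045, quantile normalization gave IMPDH2 0.016 and UMPS -0.11, and cyclic loess gave GART 0.023, ADSL 0.024, IMPDH2 0.098 and UMPS -0.10. The cause was not tested.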
